A study of Mus musculus with 6 samples.

Results

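The genes described here make sterols and fatty acids or control and move the sterols, and are grouped around the SREBP transcription factors. Whether each is a target of these factors was not tested. They are 36 genes chosen by symbol, and each is represented by the row of highest mean over all arrays. All 36 had a row in the table, out of 20263 named genes in all, and they fall by role into 8 early mevalonate genes, 12 late sterol genes, 8 fatty acid genes and 8 genes of control and transport. The series profiled neural stem cells of CD-1 albino mouse embryos at stage E14.5, grown as neurospheres (free-floating clusters in which stem cells and progenitors keep dividing) in proliferation conditions. Both groups were nucleofected, an electrical transfection, and RNA was taken 72 h later. The miR-Control group of 3 received a control RNA, and the miR-128 group of 3 received a mimic of the microRNA miR-128, which these cells normally lack. Each RNA was hybridised to its own exon array, and the question was which transcripts differ once miR-128 is present. The design calls the samples of a group biological triplicates, and the labels do not say whether they came from separate embryos or cultures.

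Cholesterol is made from acetyl-CoA through mevalonate and isoprenoid intermediates to squalene, which is cyclised to lanosterol and then trimmed, reduced and desaturated in a series of late steps. SREBP proteins are made as membrane precursors of the endoplasmic reticulum and are carried to the Golgi by the escort protein SCAP when sterols are scarce, where proteases release the part that enters the nucleus. INSIG proteins hold SCAP back when sterols are plentiful. SREBP2, from Srebf2, is best known for sterol genes and SREBP1, from Srebf1, for fatty acid genes. In the developing brain cholesterol is made locally, since the blood-brain barrier keeps out plasma lipoproteins.

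The microRNA that was introduced and the promoters of 4 members are shown so that their letters can be read beside the values. For miR-128 the 3p arm is shown, because it is the arm usually called miR-128; the labels do not name the arm of the mimic. RefSeq (GRCm38.p6) lists the same mature sequence for Mir128-1 on chromosome 1 (chr1:128202404-128202424, plus strand) and Mir128-2 on chromosome 9 (chr9:112118644-112118664, minus strand). Its seed, bases 2 to 8, is in capitals. No transcript sequences were available, so seed sites in the members were not searched for. The capitals in the promoters below mark other motifs.
mmu-miR-128-3p: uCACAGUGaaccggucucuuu

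The promoter windows, also from RefSeq with build GRCm38.p6, run from 250 bases before to 50 bases after a gene's start. Windows were listed for 29 of the 36 members, 37 windows in all, and not for Fdps, Fdft1, Sqle, Scd1, Scd2, Fads1 and Stard4. The windows shown are those of Hmgcs1 on chromosome 13 (chr13:119690101-119690400, plus strand), which holds the only match to the sterol element, of Hsd17b7 on chromosome 1 (chr1:169969156-169969455, minus strand) and Sc5d on chromosome 9 (chr9:42264251-42264550, minus strand), the late sterol genes with the largest differences, and of Idi1 on chromosome 13 (chr13:8885356-8885655, plus strand), the member whose groups were apart in the higher direction. Capitals mark the sterol element TCACNCCAC, the CCAAT box and the E-box CACGTG, each searched on both strands.
Hmgcs1: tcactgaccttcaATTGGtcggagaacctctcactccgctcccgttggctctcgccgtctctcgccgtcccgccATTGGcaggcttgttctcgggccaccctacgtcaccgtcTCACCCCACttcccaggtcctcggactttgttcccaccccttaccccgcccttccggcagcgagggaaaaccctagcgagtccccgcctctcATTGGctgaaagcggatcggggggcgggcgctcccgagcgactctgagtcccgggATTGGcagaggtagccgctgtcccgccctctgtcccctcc
Hsd17b7: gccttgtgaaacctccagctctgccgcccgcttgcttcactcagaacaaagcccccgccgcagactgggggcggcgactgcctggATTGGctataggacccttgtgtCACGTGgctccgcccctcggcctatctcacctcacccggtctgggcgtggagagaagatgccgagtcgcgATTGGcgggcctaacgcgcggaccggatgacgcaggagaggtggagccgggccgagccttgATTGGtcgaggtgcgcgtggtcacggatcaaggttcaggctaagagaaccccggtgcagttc
Sc5d: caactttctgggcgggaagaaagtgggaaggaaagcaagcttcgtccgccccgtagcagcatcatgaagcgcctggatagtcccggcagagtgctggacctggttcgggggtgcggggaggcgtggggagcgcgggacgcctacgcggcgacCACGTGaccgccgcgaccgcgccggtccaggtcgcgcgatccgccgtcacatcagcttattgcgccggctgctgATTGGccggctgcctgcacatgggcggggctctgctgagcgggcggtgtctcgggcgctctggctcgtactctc
Idi1: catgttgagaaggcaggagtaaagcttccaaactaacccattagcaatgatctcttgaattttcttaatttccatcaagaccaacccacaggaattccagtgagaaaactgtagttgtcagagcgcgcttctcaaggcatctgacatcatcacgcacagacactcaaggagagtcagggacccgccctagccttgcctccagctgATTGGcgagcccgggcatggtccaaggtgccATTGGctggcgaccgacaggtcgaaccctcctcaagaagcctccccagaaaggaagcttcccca

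In Hmgcs1 the sterol element starts 137 bases before the gene's start, and 4 CCAAT boxes lie around it. The Hsd17b7 window has 3 CCAAT boxes, the nearest starting 12 bases before the gene's start, and an E-box 143 bases before it. Sc5d has 1 CCAAT box, starting 24 bases before the start, and an E-box 98 bases before it, while Idi1 has 2 CCAAT boxes, 45 and 14 bases before its start, and no E-box.

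Across the 37 windows a CCAAT box, bound by the factor NF-Y, was present in 23, or 62.2%, against 37.4% of all 32851 promoter windows of the same length. A GC box, GGGCGG, bound by Sp1 family factors, was present in 27 of the 37, or 73.0%, against 35.7% of all windows. The E-box was in 6 of the 37, or 16.2%, against 7.15% of all windows, and belonged to Hsd17b7, Sc5d, Insig1, Dhcr7 and Scap. Of these, Insig1, Dhcr7 and Scap had overlapping groups. The windows of Acat2, Pmvk, Lss and Tm7sf2, in which every miR-128 array was lower than every control, held no E-box. The sterol element in these letters was in 1 of the 37 and in 1.24% of all windows. Some windows belong to the same gene and can overlap, and in these windows 1 pair of matches overlapped, both CCAAT boxes. The matches are descriptions of letters, not of binding.

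The arrays themselves set the precision of what follows. Median log2 values lay between 7.40 and 7.54. The miR-Control replicate 3 array stood apart, at 42.5 on the leading principal component, with the other 5 between -18.7 and -0.23, and had the lowest interquartile range, 2.87 against 2.98 to 3.22. Neural stem and radial glia markers were measured in the controls at 13.57 for Vim, 11.94 for Sox2 and 11.06 for Nes, with the lowest at 5.85 for Prom1, while the 6 microglia markers lay between 5.68 for P2ry12 and 7.31 for Cx3cr1. Olig1 and Olig2 of the oligodendrocyte lineage were at 12.28 and 11.21. The neuron marker Map2 was at 12.53, and the other neuron markers lay between 4.99 for Stmn2 and 7.66 for Rbfox3. No detection call was used, so it is unknown which rows lie at background.

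Sterol genes lay mostly lower with miR-128 and fatty acid genes were evenly split, but no member passed the test. Of the 36 members 25 had a negative log2 fold change of miR-128 over miR-Control, where 43.8% of all genes did, and their median was -0.10, against 0.02 over all genes. Early mevalonate genes were lower in 7 of 8 with a median of -0.17, and late sterol genes in 10 of 12 with a median of -0.13. Fatty acid genes were lower in 4 of 8 with a median of -0.01, and genes of control and transport in 4 of 8 with a median of 0.02. With 1 array left out these last medians took either sign, from -0.03 to 0.0037 and from -0.04 to 0.05. The test was limma's moderated test on all 32025 rows with Benjamini-Hochberg adjustment, and 0 members had an adjusted p under 0.05, as did 0 of all rows, a background of 0%. The lowest adjusted p of a member was 0.415, for Hsd17b7 and Sc5d.

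At an unadjusted p under 0.05 there were 8 members lower, where 3.39% of all genes were, and 1 higher, where 3.74% were. In the same 9 members the 3 arrays of one group lay wholly beyond the 3 of the other, 8 lower and 1 higher, where 5.27% and 6.87% of all genes did so. Genes of a pathway can vary together, so the 9 may not be independent. The count of 8 lower at an unadjusted p under 0.05 depended on which array was left out: it was 3 when miR-128 replicate 1 was left out, 4 when miR-128 replicate 3 or miR-Control replicate 2 was, 6 when miR-Control replicate 1 was, and 8 when miR-128 replicate 2 or miR-Control replicate 3 was. Without miR-Control replicate 3, the array that stood apart, 28 members were lower and the median was -0.13, and without miR-Control replicate 2 it was -0.06. The count of 1 higher with groups apart was 4 without miR-Control replicate 1 and 2 without miR-Control replicate 2 or miR-128 replicate 2. At an unadjusted p under 0.05 that count was 0 without miR-128 replicate 1 or 3.

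**Figure D1:**
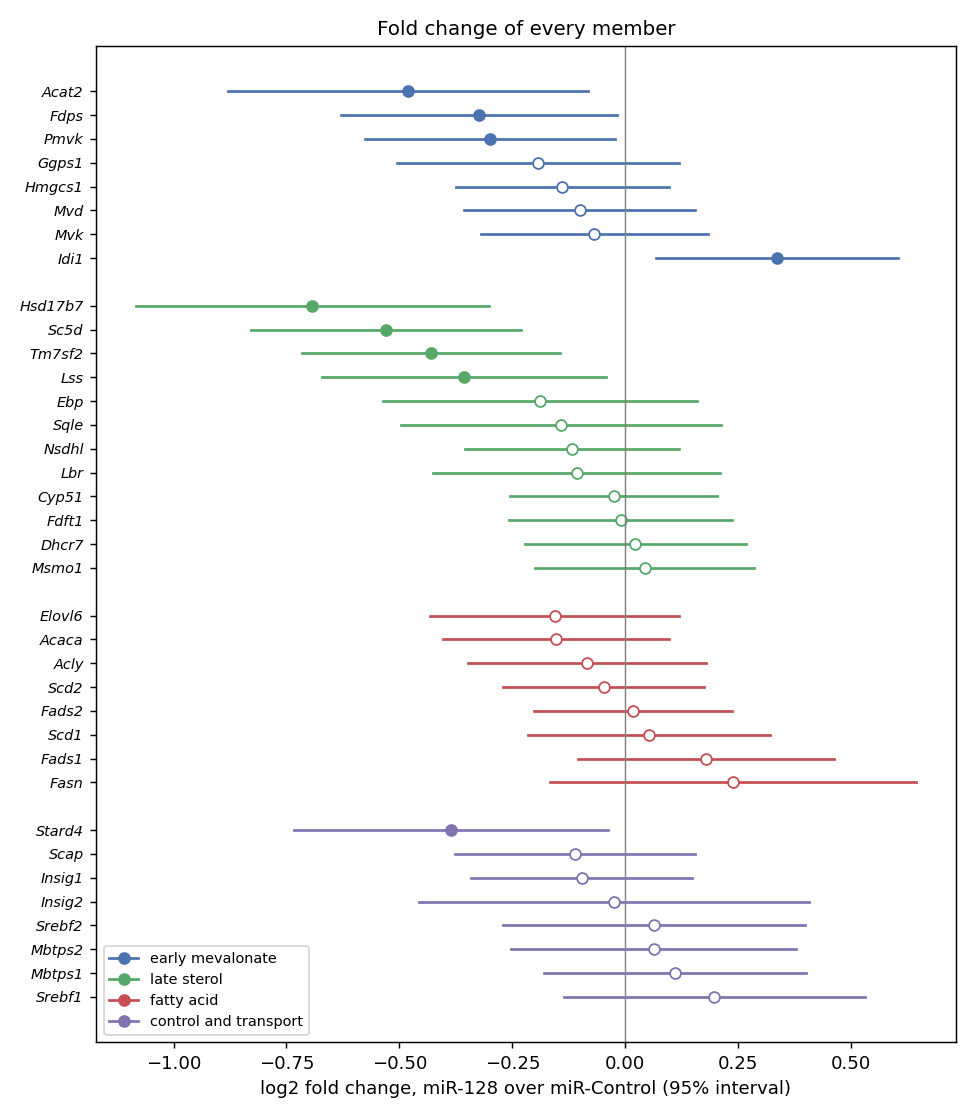
The log2 fold change of miR-128 over miR-Control (horizontal axis) is plotted for each of the 36 members, with its 95% interval as a line and role groups by colour. Filled circles are the 9 members whose groups did not overlap, from Hsd17b7 at -0.69 to Idi1 at 0.34, and in the other 27 the interval includes 0.

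The early mevalonate genes turn acetyl-CoA into isoprenoid units. Acat2, the cytosolic thiolase that starts the route, had log2 levels of 10.34, 10.79 and 10.42 in miR-Control replicates 1 to 3, against 9.70, 10.18 and 10.22 in miR-128 replicates 1 to 3. Each miR-128 array was lower than every control, with replicate 1 the lowest. The log2 fold change was -0.48 (standard error, SE, 0.18, adjusted p = 0.615), a 1.40-fold lower level, and was -0.31 without miR-128 replicate 1.

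Pmvk, the kinase that adds a further phosphate to phosphomevalonate, stood at 8.90, 8.87 and 8.72 in the controls, against 8.36, 8.72 and 8.52 with miR-128. The groups were only just apart, since miR-Control replicate 3 and miR-128 replicate 2 nearly met. Its log2 fold change was -0.30 (SE 0.12, adjusted p = 0.665), and the further Pmvk row gave -0.24. Fdps, which joins isoprenoid units into farnesyl diphosphate, measured 8.07, 8.27 and 8.01 in the controls, against 7.55, 7.95 and 7.87 with miR-128. These groups too did not overlap, with a log2 fold change of -0.32 (SE 0.13, adjusted p = 0.674) that was -0.20 without miR-128 replicate 1.

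Idi1, the isomerase between those steps, was the exception among the early genes. It had log2 levels of 8.31, 8.36 and 8.16 in the controls, against 8.68, 8.44 and 8.73 with miR-128. Every miR-128 array lay above every control, with a log2 fold change of 0.34 (SE 0.12, adjusted p = 0.600), a 1.26-fold higher level. When each array was centred on its own median the groups overlapped.

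The other early genes had overlapping groups. Ggps1, which makes geranylgeranyl diphosphate for protein prenylation, was at -0.19 (95% interval -0.50 to 0.12). Hmgcs1, the synthase that makes HMG-CoA and whose promoter holds the sterol element, was at -0.14 (95% interval -0.38 to 0.10), with levels of 13.01, 13.09 and 12.91 in the controls, against 12.81, 12.95 and 12.82 with miR-128. The decarboxylase Mvd was at -0.10 and the kinase Mvk at -0.07.

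Among the late sterol genes the differences were uneven along the route. Hsd17b7, a keto-reductase that acts in removing methyl groups from the sterol ring, had log2 levels of 10.74, 11.22 and 11.03 in miR-Control replicates 1 to 3, against 10.04, 10.60 and 10.27 in miR-128 replicates 1 to 3. The highest miR-128 array lay below the lowest control, and in both groups replicate 1 was lowest and replicate 2 highest. The log2 fold change was -0.69 (SE 0.17, adjusted p = 0.415), a 1.62-fold lower level, and lay between -0.84 and -0.56 when each array in turn was left out.

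Sc5d, the desaturase that puts a double bond into the ring late in the route, measured 10.51, 10.72 and 10.88 in the controls, against 10.01, 10.30 and 10.21 with miR-128. Its groups were apart as well, with a log2 fold change of -0.53 (SE 0.13, adjusted p = 0.415), a 1.44-fold lower level. Without miR-Control replicate 3, its highest control, the value was -0.44.

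Tm7sf2 and Lbr both encode reductases of the same ring position, and Lbr is also a receptor of the nuclear lamina. For Tm7sf2 the levels were 9.47, 9.65 and 9.63 in the controls, against 9.07, 9.38 and 9.02 with miR-128. These groups did not overlap, and the log2 fold change was -0.43 (SE 0.13, adjusted p = 0.492). Lbr was at -0.11 (95% interval -0.43 to 0.21), with overlapping groups, and the difference between both genes was not tested.

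Lss, which closes squalene epoxide into lanosterol, had 10.25, 10.62 and 10.27 in the controls, against 9.87, 10.19 and 10.00 with miR-128. No array of one group reached the other, and the log2 fold change was -0.36 (SE 0.14, adjusted p = 0.649). Without miR-Control replicate 2, its highest control, the value was -0.24. The remaining late genes had overlapping groups.

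Ebp, a sterol isomerase, was at -0.19, Nsdhl, a decarboxylating dehydrogenase, at -0.12, and Sqle, the squalene epoxidase, at -0.14. In Sqle the control arrays spread widely, at 11.32, 11.21 and 10.74, against 10.85, 11.03 and 10.97 with miR-128. Its value was -0.32 without the third of these controls, but -0.03 without the first. Fdft1, the squalene synthase, was at -0.01 (95% interval -0.26 to 0.24), Cyp51, the lanosterol demethylase, at -0.03 (95% interval -0.25 to 0.20), Msmo1, a sterol methyl oxidase, at 0.04 (95% interval -0.20 to 0.29) and Dhcr7, a final reductase, at 0.02 (95% interval -0.22 to 0.27). The sign of Fdft1, Cyp51 and Dhcr7 turned when 1 array or another was left out.

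**Figure D2:**
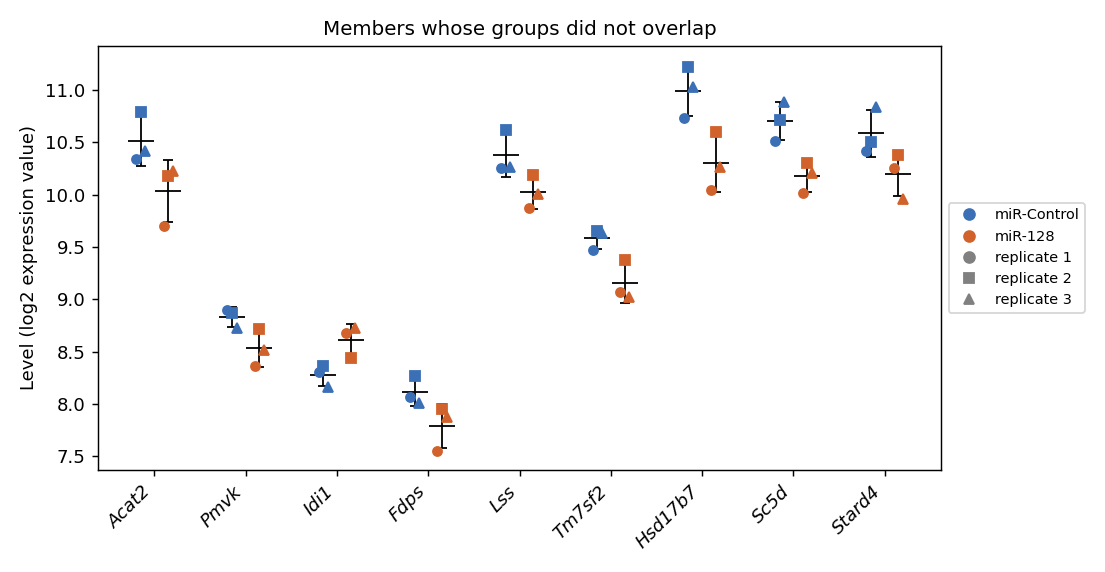
Log2 levels on each of the 6 arrays are shown for the 9 members whose groups did not overlap, with miR-Control in blue, miR-128 in orange, the marker shape for the replicate number and black bars for the mean and SD of 3 arrays. In 8 genes all orange points lie below all blue ones, and in Idi1 they lie above.

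Fatty acid genes showed no common direction. Fads1, a desaturase of long polyunsaturated fatty acids, had log2 levels of 11.81, 11.70 and 11.47 in the controls, against 11.86, 11.71 and 11.95 with miR-128. The groups overlapped, and the log2 fold change was 0.18 (95% interval -0.10 to 0.46, adjusted p = 0.876). Its neighbour in the route, Fads2, differed by 0.02 (95% interval -0.20 to 0.24).

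Acaca, the carboxylase that makes malonyl-CoA, was at 9.64, 9.70 and 9.64 in the controls, against 9.45, 9.39 and 9.67 with miR-128. Controls were close together and miR-128 replicate 3 lay among them, with a log2 fold change of -0.15 (95% interval -0.40 to 0.10, adjusted p = 0.884). Fasn, the fatty acid synthase, had 11.05, 10.64 and 10.60 in the controls, against 10.99, 10.70 and 11.31 with miR-128. It spread more within each group than the groups differed, at 0.24 (95% interval -0.17 to 0.64, adjusted p = 0.894). The value dropped to 0.09 when miR-128 replicate 3 was left out, and omitting replicate 2 of that group gave 0.39.

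Elovl6, an elongase of saturated chains, was at -0.16, and Acly, which supplies cytosolic acetyl-CoA to both sterol and fatty acid synthesis, at -0.08. The stearoyl-CoA desaturases were at 0.05 for Scd1 (95% interval -0.22 to 0.32) and -0.05 for Scd2 (95% interval -0.27 to 0.18). Scd1 and Scd2 are close paralogs, and whether their probes cross-hybridise was not tested.

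In the control genes both SREBP factors had overlapping groups. Srebf1 had log2 levels of 10.02, 9.70 and 9.68 in the controls, against 9.95, 9.80 and 10.24 with miR-128. Its highest arrays were spread over both groups, and the log2 fold change was 0.20 (95% interval -0.14 to 0.53, adjusted p = 0.893). Leaving out miR-128 replicate 3 gave 0.08, whereas leaving out miR-Control replicate 1 gave 0.31. Srebf2 had 11.52, 11.14 and 11.21 in the controls, against 11.41, 11.12 and 11.53 with miR-128, a log2 fold change of 0.06 (95% interval -0.27 to 0.40, adjusted p = 0.987) whose sign turned under array weights. These are levels of the transcripts, and the processing of the precursor proteins was not measured.

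Scap, the escort, had 10.16, 10.16 and 9.93 in the controls, against 9.94, 9.87 and 10.11 with miR-128, and its groups overlapped at -0.11 (95% interval -0.38 to 0.16, adjusted p = 0.944). Insig1, the retention protein that is itself an SREBP target, had 12.40, 12.66 and 12.60 in the controls, against 12.48, 12.44 and 12.45 with miR-128. All 3 miR-128 values lay within the range of the controls, with a log2 fold change of -0.10 (95% interval -0.34 to 0.15, adjusted p = 0.948). Insig2 was at -0.02, and the proteases that release SREBP were at 0.11 for Mbtps1 and 0.06 for Mbtps2, all with overlapping groups.

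Stard4, a carrier that moves cholesterol between membranes, was the only gene of this group whose arrays separated. Its log2 levels were 10.41, 10.50 and 10.84 in the controls, against 10.25, 10.38 and 9.96 with miR-128. The gap between the groups was small, with miR-128 replicate 2 just below miR-Control replicate 1, and the log2 fold change was -0.39 (SE 0.15, adjusted p = 0.652). It was -0.26 without miR-Control replicate 3.

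**Figure D3:**
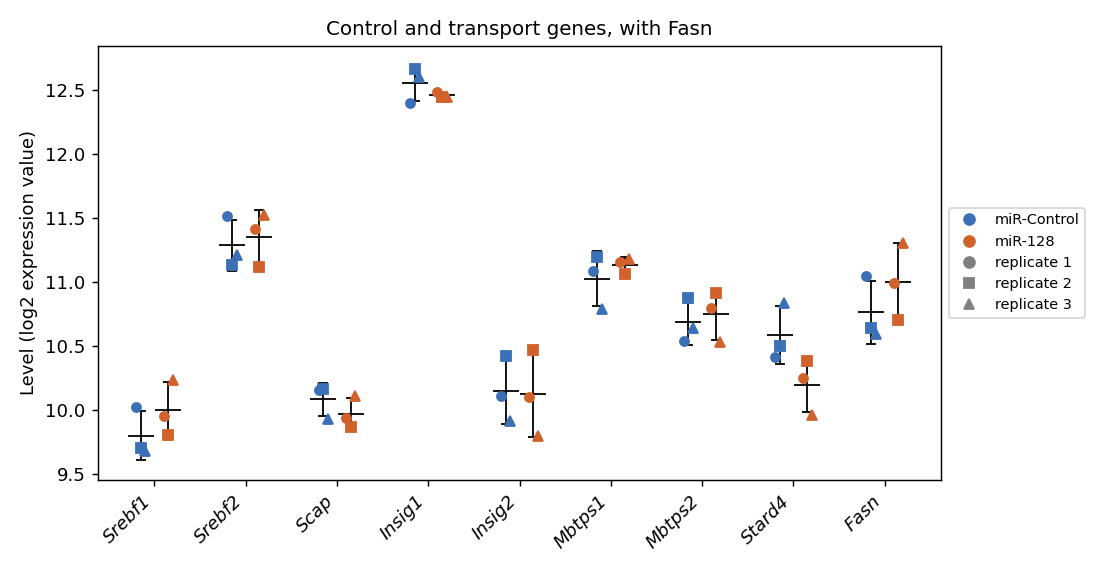
Log2 levels on each array are shown for the 8 genes of control and transport and for Fasn, with miR-Control in blue, miR-128 in orange, the marker shape for the replicate number and black bars for the mean and SD of 3 arrays. Blue and orange overlap in all but Stard4, and in Srebf1, Srebf2, Scap, Mbtps1 and Fasn, 5 of the 9 genes, miR-128 replicate 3 is the highest and replicate 2 the lowest orange point.

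The order of the arrays within a group differed between branches, a pattern singled out after the values were seen. With miR-128, replicate 3 was the highest array in 7 of 8 fatty acid genes and replicate 2 the lowest in 7 of 8. In the control and transport genes these were 4 of 8 and 5 of 8, and Srebf1, Srebf2, Scap and Mbtps1 had both. In the late sterol genes replicate 2 was the highest in 9 of 12 and replicate 1 the lowest in 8 of 12. Among the controls replicate 2 was highest in 6 of 8 early, 8 of 12 late and 5 of 8 control and transport genes but in 1 of 8 fatty acid genes. Control replicate 1 was highest in 4 of 8 fatty acid genes and in 2 of 8 control and transport genes, Srebf1 and Srebf2. The same counts over all genes were not made. The mean over all genes, set against the controls, was -0.0094, 0.016 and 0.028 in miR-128 replicates 1 to 3. Whether these orders are particular to a branch was not tested, nor was what sets them.

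Averaged over each role group and set against the mean of the controls, the early mevalonate genes stood at -0.03, 0.09 and -0.06 in miR-Control replicates 1 to 3, against -0.28, -0.09 and -0.11 in miR-128 replicates 1 to 3. Late sterol genes stood at -0.03, 0.10 and -0.07 in the controls, against -0.32, -0.08 and -0.23 with miR-128. In both, each miR-128 array was below every control, by little in replicate 2, which lay just under miR-Control replicate 3. These means reuse the values of the single genes. The late sterol mean log2 fold change was -0.21, against a median of -0.13, and Hsd17b7, Sc5d, Tm7sf2 and Lss weigh most in it.

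The fatty acid mean was 0.04, 0.02 and -0.06 in the controls, against 0.02, -0.09 and 0.09 with miR-128, and the groups overlapped. For control and transport it was 0.01, 0.06 and -0.07 in the controls, against -0.01, -0.01 and -0.05 with miR-128, again overlapping. Leaving out miR-Control replicate 3 took the late sterol median from -0.13 to -0.23, leaving out miR-Control replicate 2 took it to -0.08 and leaving out miR-128 replicate 1 to -0.09.

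**Figure D4:**
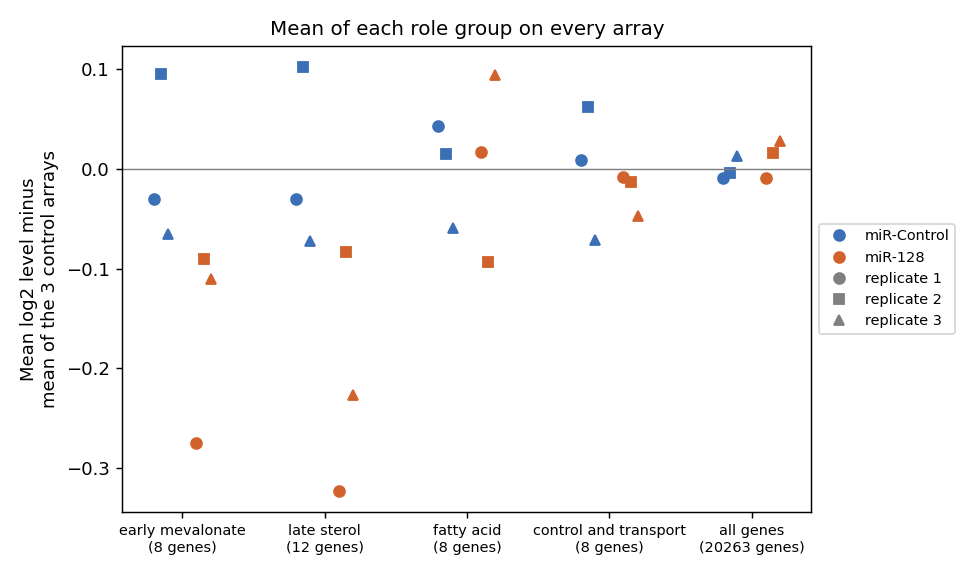
The mean log2 level of each role group, minus its mean over the 3 control arrays (vertical axis), is plotted for every array, with all 20263 named genes at the right for comparison. The miR-128 arrays (orange) lie below the controls (blue) in the early mevalonate and late sterol groups, while the groups overlap in fatty acid genes and in control and transport.

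Markers of the oligodendrocyte lineage, cells known for making much cholesterol when they myelinate, were higher in 8 of 9, where 56.2% of all genes were, with a mean over the list of 0.04, -0.09 and 0.05 in the controls, against 0.18, 0.15 and 0.25 with miR-128. No marker passed the test, and 3 were higher at an unadjusted p under 0.05, where 3.74% of all genes were. Astrocyte markers were higher in 5 of 6, where 56.2% of all genes were. Their mean stood at -0.05, 0.04 and 0.01 in the controls, against 0.13, 0.13 and 0.18 with miR-128. At an unadjusted p under 0.05 these markers were higher in 2 and lower in 1, where 3.74% and 3.39% of all genes were. Slc1a2, a glutamate transporter, was at 0.47 (adjusted p = 0.456) and Gja1, a gap junction protein, at -0.29 (adjusted p = 0.698). Neural stem and radial glia markers were split, with 5 of 9 lower, where 43.8% of all genes were. Among them Fabp7 was at -0.30 (adjusted p = 0.641) and Hes5 at 0.33 (adjusted p = 0.730). Neuron markers were higher in 4 of 7 and vascular and mesenchymal markers in 3 of 6, near the 56.2% of all genes. Microglia markers were higher in 6 of 6 with a median of 0.05, from 0.0059 for Cx3cr1 to 0.16 for Aif1. The part of these markers in the sterol values was not tested. In a bulk sample, fewer cells of a type and less RNA per cell cannot be told apart.

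Around SCAP and INSIG, a list of 14 further genes lay mostly higher, in 11 of 14, where 56.2% of all genes were, with a median log2 fold change of 0.16. None passed the test, and 4 were higher and 0 lower at an unadjusted p under 0.05, where 3.74% and 3.39% of all genes were. Sec23a and Sec24a, coat proteins of the COPII vesicles that carry cargo such as SCAP out of the endoplasmic reticulum, had the smallest p of the list. Sec24b, Sec24c and Sec24d are coat genes too, and all these coat genes were higher. The 4 were Sec23a, Sec24a, Sec24d and Rnf145, so the counts rest largely on coat genes. Among the rest of the list Pgrmc1, Erlin1 and Erlin2 were lower.

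Sec23a measured 10.41 ± 0.17 in the controls, against 10.91 ± 0.02 with miR-128 (SD of 3 arrays), a log2 fold change of 0.51 (SE 0.12, adjusted p = 0.386). For Sec24a the levels were 9.62 ± 0.17 and 10.20 ± 0.19, a log2 fold change of 0.58 (SE 0.13, adjusted p = 0.391). These coat genes serve all cargo and not SCAP alone.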

How the data were processed

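The deposited values are log2 expression values. Per the submitters' processing notes, the authors used RMA and affy, and no versions are given there. RMA in general corrects background, equalises array distributions and summarises probes into 1 log2 value, and tends to compress fold changes. The distributions of the deposited values still differed between arrays, with interquartile ranges from 2.87 to 3.22. Rows are RefSeq transcripts, named through the RefSeq gene table of GRCm38.p6, used here for names only. Of 32025 rows 25343 were named. The 36 members had 42 rows, with 6 genes having more than 1 row, whose log2 fold changes differed by at most 0.06. Groups were compared with limma 3.58.1, run in R 4.3.3 (lmFit, eBayes, unpaired, two-sided, no filter) on all 6 arrays, adjusted over all rows, with a threshold of 0.05 and a prior of 4.74 degrees of freedom. The procedure was tested on simulated data with independent noise. How often it recovers differences as small as those of the members is not reported here. Values on every array are given for the 3 members of smallest p in each role group and for Srebf1, Srebf2, Scap and Insig1, and for further members whose groups were apart or that illustrate a spread. The members, lists and tests were chosen with earlier results of these data known. The number of arrays limits the precision. The p-values set the difference of the groups against the spread between the arrays of a group, moderated by that of all rows.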

Additional observations from a re-analysis of the deposited data

How the results depend on the processing

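The 36 log2 fold changes were recomputed under 7 other settings and with each array left out. None was called under any of these 13 settings, and 25 members kept their sign in all of them. Array weights called 24 rows of the whole table and the restriction to rows above the median level called 4, against 0, and neither called a member. Centring each array on its median left 0 members higher, both at an unadjusted p under 0.05 and by groups apart, and turned Dhcr7 to -0.0054 and Fads2 to -0.011. Quantile normalization turned Scd2 to 0.034, and array weights turned Dhcr7 to -0.023, Scd1 to -0.015 and Srebf2 to -0.045. With 1 array left out, the members lower at an unadjusted p under 0.05 numbered 3 to 8 and those higher 0 to 1, and those with groups apart and higher 1 to 4, which fewer arrays make easier. The early mevalonate median lay between -0.24 and -0.13. Values that turned sign lay from -0.062 to 0.058 for Fdft1, -0.057 to 0.017 for Cyp51, -0.00012 to 0.043 for Fads2, -0.022 to 0.17 for Mbtps2, -0.024 to 0.18 for Srebf2, -0.20 to 0.14 for Insig2, -0.028 to 0.078 for Dhcr7, -0.037 to 0.11 for Scd1, -0.0093 to 0.20 for Mbtps1 and -0.13 to 0.0030 for Mvk. The cause was not tested. The samples share only replicate numbers: the deviations of same-numbered arrays correlated at -0.0028, 0.17 and 0.05. Those of differently numbered arrays correlated at -0.24 to 0.19. With the replicate block 7 members were lower at an unadjusted p under 0.05 against 8, and 0 were called.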

Other observations

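Genes that use the isoprenoids made early in the route lay lower with miR-128 in 8 of 9, where 43.8% of all named genes did, with a median log2 fold change of -0.14, against 0.02 over all. None passed limma's test, and 1 was lower at an unadjusted p under 0.05, where 3.39% of all were. That gene, Pggt1b, the catalytic subunit that attaches geranylgeranyl groups to proteins, measured 10.08 ± 0.25 in the controls and 9.56 ± 0.24 with miR-128 (SD of 3 arrays), a log2 fold change of -0.52 (adjusted p = 0.532). Pdss1, which builds the tail of coenzyme Q, was at -0.31 (adjusted p = 0.781).

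Further lipid genes were split, with 8 of 15 lower, where 43.8% of all genes were, and a median of -0.03. Npc1, which exports cholesterol from lysosomes, was at 0.25 (adjusted p = 0.652) and was the only gene of this list with an unadjusted p under 0.05, where 3.74% of all genes were higher and 3.39% lower. Tmem97, a protein that interacts with Npc1, was at -0.39 (adjusted p = 0.701).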
